A study of Mus musculus with 20 samples.

Results

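Genes of antibody-secreting plasma cells and the immunoglobulin heavy chain were followed in the whole blood of mice 24 hours after X-irradiation. The members were fixed by gene name: Igj (now Jchain), Xbp1, Prdm1, Sdc1, Tnfrsf17, Cd38 and Ighm. Of these 7 genes, 6 had a probe of that name among the 39429 non-control probes of the array, with 1 probe each, and no probe carried the name Ighm. The IgM heavy chain was nevertheless measured, by a probe named only by its transcript and annotated as the heavy chain of IgM. That probe and the other 10 probes of the heavy chain constant region are described beside the members. They lie outside the rule, and they were picked from their annotation and position after the files were read.

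The study asked whether an inflammatory background changes the blood response to radiation. It compared male C57BL/6 wild-type (WT) mice with male littermates carrying the Il10 knockout allele Il10tm1Cgn on both chromosomes (B6.129P2-Il10tm1Cgn/J, here Il10-/-), at 8 to 10 weeks of age. Mice of each genotype received either 0 Gy (mock irradiation) or 7 Gy, and blood was drawn by cardiac puncture and globin-reduced, so all groups share these steps. There were 5 arrays for each of the 4 groups, 20 in all, and each of the 5 slides carried 1 array of every group. The knockout is not restricted to a cell type, and the blood was not sorted.

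A plasma cell is the end stage of a B cell, in which the program that makes a B cell is replaced by one that makes and exports antibody. Prdm1 (Blimp-1) represses the B cell program, and Xbp1 expands the secretory apparatus. The J chain, encoded by Igj, links the units of the secreted polymers of IgM and IgA. Sdc1 (syndecan-1, CD138) and Tnfrsf17 (BCMA) encode surface proteins used to recognise the cells, while Cd38 encodes a surface protein of many blood cells. Each antibody class is set by the constant region joined to the variable part of the heavy chain. Naive B cells carry IgM and IgD on their surface, switched cells carry IgG or IgA, and plasma cells of blood are rare in resting animals.

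The sequences below are those of 4 heavy chain probes, shown because they lie at 4 different places along the constant region and because each was called in at least 1 radiation response. All are 60 bases long, read 5′ to 3′, lie on the minus strand of chromosome 12 in the mm9 coordinates of the files, and are annotated to heavy chain transcripts. Capitals mark the codons of the 1 frame without a stop codon where only 1 of the 3 frames is open. The IgG2b probe has 2 open frames and is therefore all in lower case.
IgM, chr12:114659630-114659689: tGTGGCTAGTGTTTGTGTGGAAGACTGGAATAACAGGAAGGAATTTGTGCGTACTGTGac
IgD, chr12:114654277-114654336: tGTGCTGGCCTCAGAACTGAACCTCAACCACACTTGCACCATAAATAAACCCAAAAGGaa
IgG2b, chr12:114544738-114544797: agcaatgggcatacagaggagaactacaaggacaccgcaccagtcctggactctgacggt
alpha end, probe 3, chr12:114496985-114497044: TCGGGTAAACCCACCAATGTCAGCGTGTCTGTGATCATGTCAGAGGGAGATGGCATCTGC
RefSeq orders the constant genes as Ighm, Ighd, Ighg3, Ighg1, Ighg2b, Ighg2c, Ighe and Igha, and these probes follow the same order along the chromosome. The last of them is annotated only as heavy chain complex, as are 2 neighbours. The 3 are called the alpha end probes here, for their place at the end of the cluster where Igha lies, which is not proof of the class they read.

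Values are given as log2 of the background-corrected signal minus the median of the array, so 1 unit is a doubling, and levels of different probes cannot be set against each other. A probe was called changed where limma's moderated test gave p below 0.001 and the Benjamini-Hochberg adjusted p over all tested probes was under 10%. The share of spots detected differed between arrays. Among probes, 34.2% to 56.9% were well above background on 19 arrays, against 29.8% on replicate 5 of the 0 Gy mice labelled WT, so results that rest on this array are also given without it. Replicates 1 and 2 stood closest in every group, with a robust SD of their log2 differences of 0.14 to 0.229. For the other 36 pairs it was 0.248 to 1.09. Replicates 1 and 2 were counted as separate mice, although the labels give only replicate numbers and name no mouse. The Il10 probe, on chromosome 1 from 132920943 to 132921002 of mm9, was well above background on all 5 arrays of each group labelled Il10-/- (2.75 ± 0.31 at 0 Gy and 2.71 ± 0.62 at 7 Gy, SD, n = 5) and on 0 arrays labelled WT (-1.54 ± 0.45 and -1.85 ± 0.61, SD, n = 5). This is the reverse of what losing the transcript would give, and where the probe lies relative to the altered part of the allele is not given in the sources used here. Directions between genotypes therefore rest on the labels. Of 7 tested probes of neutrophil genes, 4 were called higher in unirradiated mice labelled Il10-/- than in those labelled WT, with a median difference of 1.88. In blood, fewer cells of a type and less RNA per cell cannot be told apart.

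The member probes were not called in any comparison. In mice labelled WT, 0 of the 3 members that passed the filters were called after 7 Gy, where 6.8% of all tested probes were, and 0 of the 3 had an unadjusted p below 0.05, where 29.1% did. In mice labelled Il10-/-, 0 of 3 were called against 9.16% of all tested probes, while 3 of 3 had an unadjusted p below 0.05 against 35.5%. The 3 that passed were Igj, Prdm1 and Cd38. Xbp1 was bright on all arrays but varied too little for the variation filter, and Sdc1 and Tnfrsf17 were too often near background. For these 3 the values of a fit over all 39429 probes are given, in which 3.66% and 4.65% of probes were called in the WT and Il10-/- responses.

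Igj, measured on chr5:88949919-88949978, had the largest difference among the members after irradiation of mice labelled Il10-/-. At 0 Gy the 5 arrays labelled Il10-/- read 3.10, 3.22, 2.23, 3.80 and 3.16, and at 7 Gy they read 1.96, 2.22, 1.97, 1.97 and 0.32. The highest irradiated array lay just under the lowest unirradiated one, so the groups did not overlap, as in 17% of all tested probes. The log2 difference was -1.41 ± 0.39 (SE; adjusted p = 0.0232, limma), and its unadjusted p of 0.00323 in the limma fit did not reach the threshold for a call. The signal was well above background on 5 of 5 arrays at 0 Gy and on 3 of 5 at 7 Gy. Without the low replicate 5 at 7 Gy the difference was -1.07 (adjusted p = 0.0311, limma).

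In mice labelled WT the Igj readings overlapped between doses. The unirradiated arrays gave 4.18, 4.35, 4.08, 2.91 and 1.31 and the irradiated ones 2.54, 2.67, 3.23, 3.69 and 2.73. Replicates 1 to 3 at 0 Gy lay above all irradiated arrays, while replicate 5 lay below all of them. The difference was -0.40 ± 0.54 (SE; adjusted p = 0.682, limma). Without replicate 5 at 0 Gy it was -0.91 (adjusted p = 0.104), and without replicates 4 and 5, a choice made after seeing the data, -1.23 (adjusted p = 0.0161), neither of which was a call. On the slides the WT difference ran from -1.69 to 1.42, and the Il10-/- difference from -2.83 to -0.26, below 0 on 5 of 5.

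Prdm1, the transcription factor at the head of the plasma cell program, was read on chr10:44157089-44157148 near the detection limit. At 0 Gy the arrays labelled Il10-/- held within 0.79 to 1.26, at 1.19, 1.26, 0.79, 1.22 and 1.22, and all 5 were well above background. At 7 Gy they read 0.79, 0.34, -0.09, 0.01 and 0.38, with 2 of 5 well above background. The highest irradiated array met the lowest unirradiated one, and the difference was -0.85 ± 0.23 (SE; adjusted p = 0.0215, limma), again not called. Arrays labelled WT scattered more widely, at 0.81, 0.55, 1.05, -0.55 and -1.73 without and -0.55, -0.41, -0.24, 0.92 and -1.23 with irradiation. Their difference was -0.33 ± 0.55 (SE; adjusted p = 0.742), and -0.77 (adjusted p = 0.242) without replicate 5 at 0 Gy.

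Cd38 encodes an NAD-consuming surface enzyme of many blood cells, so its signal is not a reading of plasma cells alone. Its probe, on chr5:44302865-44302924, read 4.35, 4.58, 4.29, 4.21 and 4.20 in unirradiated mice labelled Il10-/- and 3.67, 3.53, 3.37, 3.94 and 4.04 after 7 Gy. All irradiated arrays lay below all unirradiated ones, by a narrow margin. The groups likewise did not overlap for 17% of all tested probes. The difference was -0.62 ± 0.21 (SE; adjusted p = 0.0568, limma), not called. In mice labelled WT, 4 of the 5 unirradiated arrays read 4.28 to 4.82 and replicate 5 read 1.66, and the irradiated arrays read 3.41, 3.64, 4.23, 4.49 and 4.15. The fitted difference was -0.03 ± 0.55 (SE; adjusted p = 0.978), and it became -0.62 (adjusted p = 0.155) without replicate 5 at 0 Gy, so that 1 array set its size.

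Xbp1, on chr11:5425816-5425875, was well above background on 20 of 20 arrays. The arrays labelled WT read 7.11, 6.94, 6.90, 5.76 and 5.48 at 0 Gy and 7.60, 7.61, 7.04, 7.06 and 7.80 at 7 Gy. Replicates 4 and 5 at 0 Gy were the lowest of all 20 arrays, and 2 of the other 3 of that group also lay below every irradiated array of the same label. The difference was 0.98 ± 0.41 (SE; adjusted p = 0.213, limma), and 0.44 (adjusted p = 0.365) without those 2 arrays. The Il10-/- ranges were 6.94 to 7.60 at 0 Gy and 6.89 to 7.58 at 7 Gy, with a difference of -0.17 ± 0.24 (SE; adjusted p = 0.619).

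Sdc1, on chr12:8799383-8799442, was high on some arrays of 3 groups and near background on the rest. Irradiated arrays labelled WT read 4.40, 4.47, 1.47, -1.74 and -1.69, against -0.36, -0.28, -0.40, -1.35 and -0.41 at 0 Gy. Arrays labelled Il10-/- read -1.17, -1.77, 1.52, 3.11 and -2.40 at 0 Gy and 2.34, 2.55, -0.54, 0.73 and -0.44 at 7 Gy. Neither response passed the test: the differences were 1.94 ± 1.04 (SE; adjusted p = 0.371, limma) and 1.07 ± 1.05 (SE; adjusted p = 0.462, limma). The array values spread more within groups than between them.

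Syndecan-1 is also made by liver cells, and the liver genes fixed as markers varied on the same arrays. The mean log2 signal of 13 of the 14 listed liver genes had a range of 0.65 to 2.64 at 0 Gy and 3.28 to 11.02 at 7 Gy for the WT label. For the Il10-/- label the ranges were 2.70 to 9.35 at 0 Gy and 1.90 to 9.37 at 7 Gy. Over the 20 arrays, which share slides and groups, Sdc1 followed this mean with r = 0.87 and a rank correlation of 0.68, given as a description. For Xbp1 the values were 0.49 and 0.59. All 14 liver genes were well above background on at least 1 array, and 4 of them on all 20. Their part in the Sdc1 and Xbp1 readings was not tested.

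**Figure D1:**
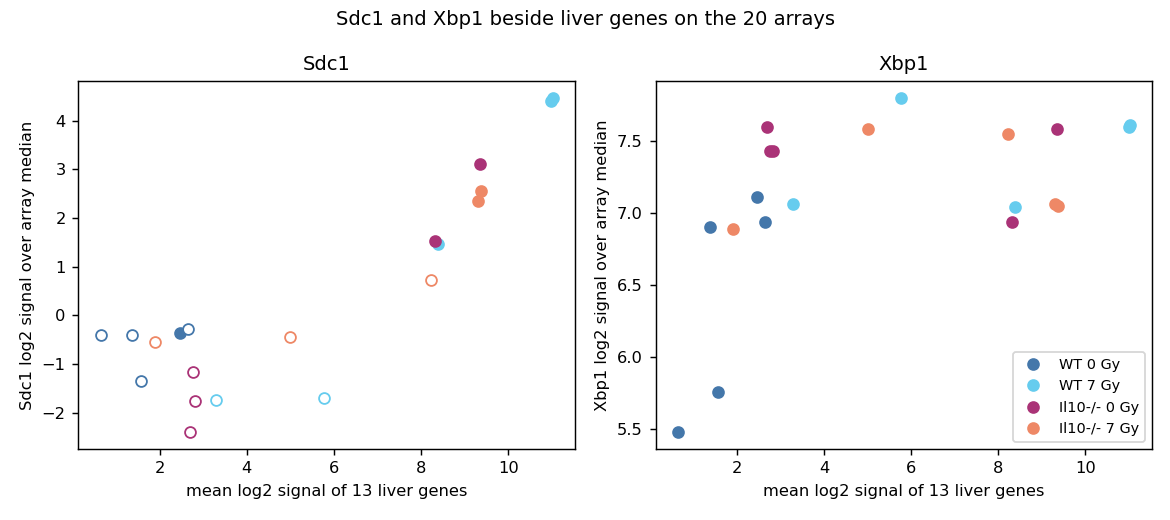
The log2 signal of Sdc1 (left) and Xbp1 (right) over the array median is set against the mean log2 signal of 13 liver genes, with 1 point an array coloured by group and open points not well above background. The arrays with Sdc1 at 1.47 or more all had liver means over 8, while Xbp1 was lowest on 2 unirradiated WT arrays with low liver means.

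Tnfrsf17, the BCMA receptor for plasma cell survival signals, stayed below that detection limit on each of the 20 arrays. Its readings ran from -2.91 to -0.15, so only a bound below detection is known and no fold is given. Sdc1 was well above background on 8 arrays, Prdm1 on 12, Igj on 18, Cd38 on 19 and Xbp1 on 20. The 2 surface markers most particular to plasma cells were therefore the 2 least often detected members.

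**Figure D2:**
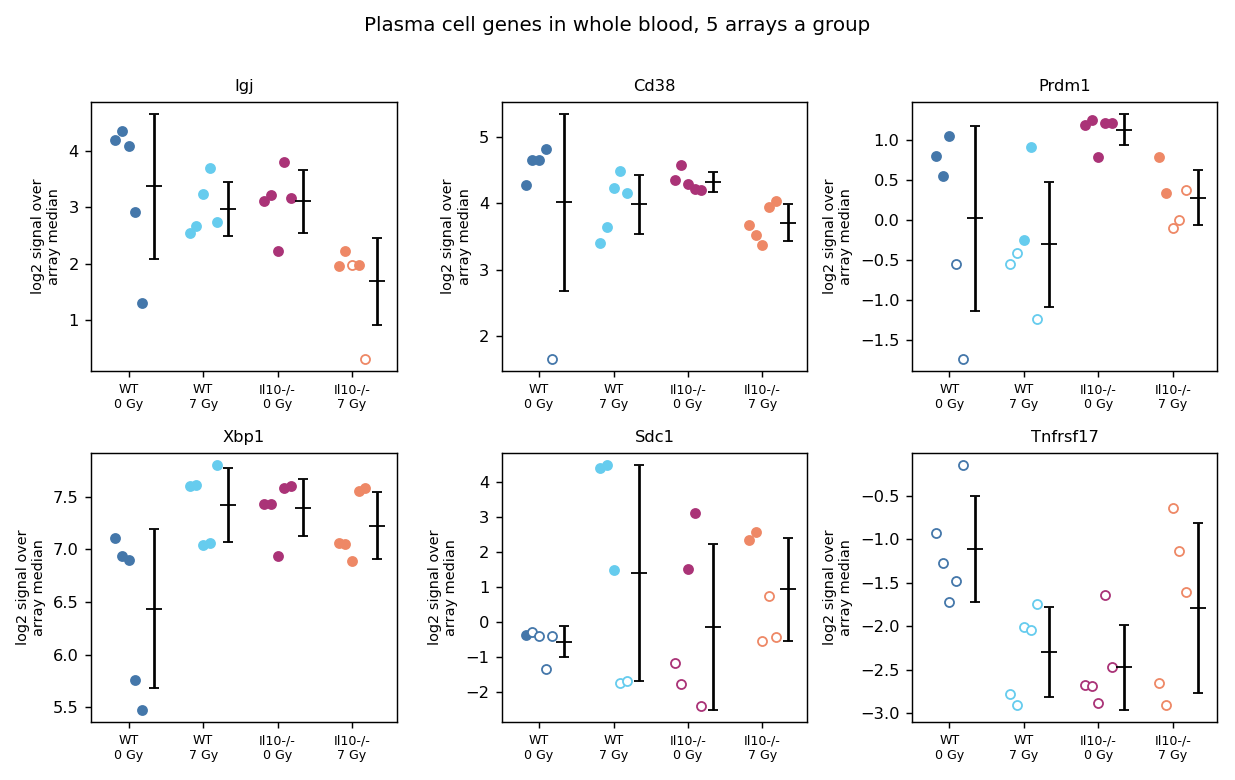
Log2 signal over the array median (y axis) of the 6 member genes in the 4 groups by labelled genotype and dose. Each point is 1 array in the order of its replicate number, open points are not well above background, and bars give mean and SD (n = 5). Irradiated Il10-/- arrays lie below unirradiated ones for Igj and Cd38, and replicate 5 of the WT 0 Gy group is the lowest of its group for Igj, Cd38, Prdm1 and Xbp1.

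Probes of the heavy chain constant region, unlike those of the members, included calls in both radiation responses. Of the 11 probes, 8 passed the filters. After 7 Gy, 4 of these 8 were called lower and 0 higher in mice labelled WT, against 2.32% of all tested probes called lower and 4.48% called higher. For the Il10-/- label 5 of 8 were called lower and 0 higher, against 5.87% and 3.29%. The median log2 difference of the 8 was -1.70 and -2.29, beside -0.02 and -0.10 over all tested probes. The WT calls were IgM, IgD, IgG2b and IgG2a, and the Il10-/- calls were IgM, IgD and the alpha end probes. The alpha end probes share a target region, so the counts and medians are of probes and not of separate classes. The classes did not move alike in the 2 genotypes by the threshold, although no difference between the responses was called. With normexp background correction 0 heavy chain probes were called in either response, and 261 and 0 probes of the whole array were. The WT differences were then -1.06 for IgM, -1.79 for IgD, -0.65 for IgG2b and -0.92 for IgG2a, and the probes of the light chains, the variable segments and the B cell list had 0 calls as well.

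The IgM probe is printed in 10 spots on each array, which were averaged. Arrays labelled WT read 6.66, 6.92, 6.85, 5.02 and 4.74 at 0 Gy and 3.28, 3.73, 4.70, 3.72 and 4.19 at 7 Gy. Those labelled Il10-/- read 6.24, 6.64, 5.95, 6.14 and 5.31 at 0 Gy and 3.32, 3.93, 3.88, 3.63 and 3.09 at 7 Gy. The lowest unirradiated array stood above the highest irradiated one in both genotypes, with the WT margin as narrow as 4.74 against 4.70. Of all tested probes, 16.1% separated the doses without overlap in the WT response and 17% in the Il10-/- response. IgM fell by 2.11 ± 0.50 (SE; adjusted p = 0.011, limma) in mice labelled WT, a 4.33-fold difference, and by 2.48 ± 0.28 (SE; adjusted p = 0.000152) in mice labelled Il10-/-, a 5.59-fold difference. The Il10-/- call held with each of the 10 arrays left out in turn. The WT call held with 3 of 10, lost with any of replicates 1 to 3 at 0 Gy or replicates 1, 2, 4 and 5 at 7 Gy left out, at -2.18 to -1.89 with adjusted p from 0.0165 to 0.0315. Without the weak replicate 5 at 0 Gy the WT difference was -2.44 (adjusted p = 0.00407, limma), still a call.

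IgD, the second class of naive B cells, changed most. Its probe read 6.77, 6.98, 6.50, 6.51 and 5.16 at 0 Gy and 2.30, 1.82, 3.37, 3.58 and 3.21 at 7 Gy in mice labelled WT. Arrays labelled Il10-/- read 6.11, 6.31, 6.13, 6.91 and 5.18, and then 1.94, 1.98, 2.32, 2.19 and 2.39. No irradiated array came within 1.5 units of an unirradiated one. It fell by 3.53 ± 0.46 (SE; adjusted p = 0.00031, limma) and by 3.97 ± 0.30 (SE; adjusted p = 8.7e-06), or 11.5-fold and 15.6-fold, and stayed called with every array of either comparison left out in turn.

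Of the 6 probes of gamma classes, the IgG2b and IgG2a probes were called in mice labelled WT. The gene order given above lists Ighg2c and no Ighg2a. IgG2a is therefore the name in the probe's annotation, not a class shown to be made by these mice. IgG2b read 3.39, 3.49, 4.41, 2.94 and 2.38 at 0 Gy and 0.26, 0.12, 1.16, 0.98 and 1.67 at 7 Gy, without overlap, and fell by 2.48 ± 0.45 (SE; adjusted p = 0.00233, limma). The probe annotated as IgG2a, on chr12:114525496-114525555, read 4.11, 4.21, 5.05, 3.76 and 2.77 and then 1.03, 1.01, 1.53, 1.67 and 1.10, and fell by 2.71 ± 0.43 (SE; adjusted p = 0.00104). The doses overlapped in mice labelled Il10-/-. IgG2b read 2.27, 2.34, 2.08, 2.62 and 3.73 at 0 Gy and 1.75, 1.96, 2.89, 0.76 and 0.71 at 7 Gy, and IgG2a read 3.36, 3.32, 2.97, 3.49 and 4.59 and then 2.56, 2.83, 3.10, -0.29 and 1.72. The differences were -0.99 ± 0.44 (SE; adjusted p = 0.129, limma) for IgG2b and -1.56 ± 0.57 (SE; adjusted p = 0.0694) for IgG2a. Replicates 4 and 5 were the 2 lowest irradiated arrays for both probes, while replicates 1 to 3 stayed close to the unirradiated level.

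The 3 alpha end probes gave the opposite order of calls. Probe 3 read 8.25, 8.48, 8.07, 7.94 and 5.45 at 0 Gy and 5.59, 5.53, 6.01, 7.79 and 6.94 at 7 Gy in mice labelled WT, where replicate 5 at 0 Gy lay below every irradiated array. In mice labelled Il10-/- it read 7.19, 7.33, 5.86, 8.0 and 7.37, and then 4.83, 5.05, 5.31, 4.56 and 4.39, without overlap. The 3 probes fell by 2.26 to 2.41 in mice labelled Il10-/- (adjusted p from 0.00114 to 0.00122, limma), and probe 1 was well above background on 1 of 5 irradiated arrays there. In mice labelled WT they differed by -1.29 to -1.27 (adjusted p from 0.147 to 0.168) and none was called. For probe 3 the WT difference was -1.82 (adjusted p = 0.0177) without replicate 5 at 0 Gy, still not a call. These 3 probes share a target region and are not separate replicates.

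The remaining constant region probes were dim. The IgG3 probe and both probes at the gamma 1 position failed the background filter and were well above background on 2, 3 and 4 of the 20 arrays. The probe at the gamma 2 position, past the IgG2a probe, passed the filters but was well above background on 1 array of 20, an unirradiated one labelled WT. It was not called in either radiation response, and no fold is given because 4 of the 5 unirradiated WT arrays and all other arrays lay below that limit.

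**Figure D3:**
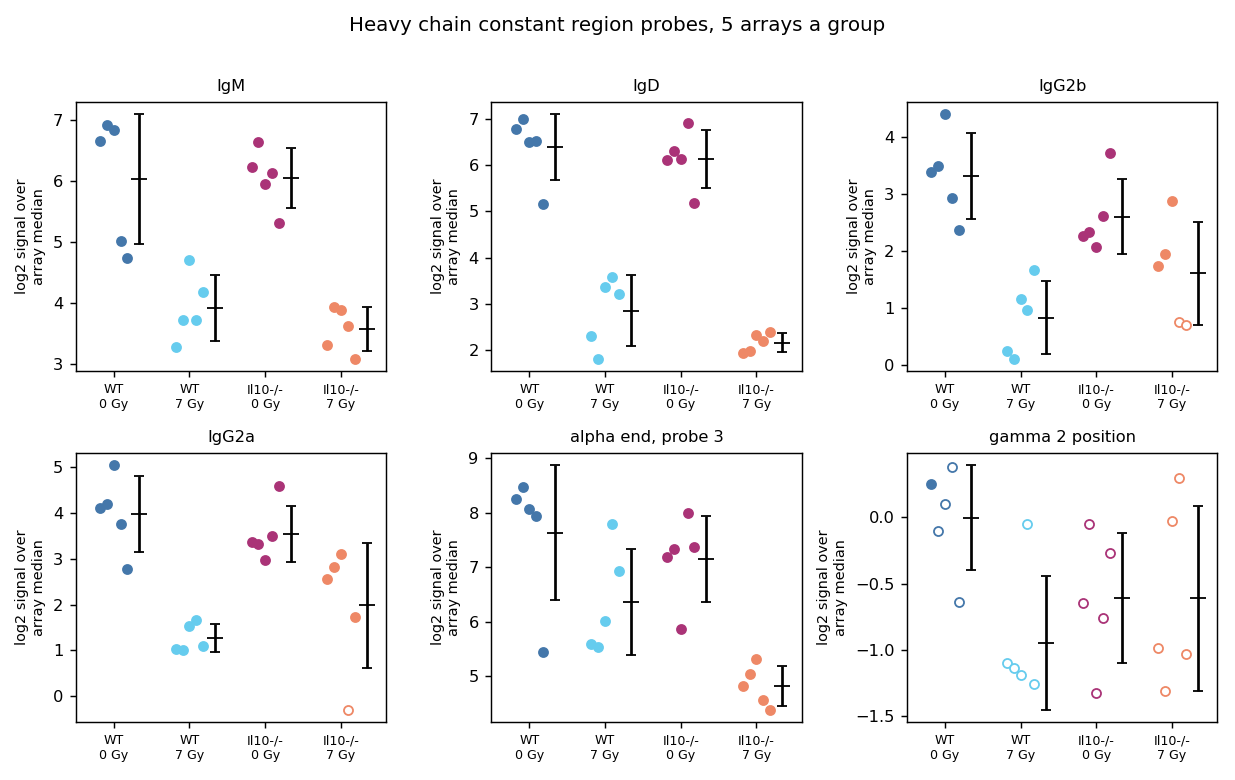
Log2 signal over the array median (y axis) of 6 heavy chain constant region probes in the 4 groups by labelled genotype and dose. Points are arrays in replicate order, open points are not well above background, and bars give mean and SD (n = 5). IgM and IgD separate the doses in both genotypes, IgG2b and IgG2a in mice labelled WT, and alpha end probe 3 in mice labelled Il10-/-.

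**Figure D4:**
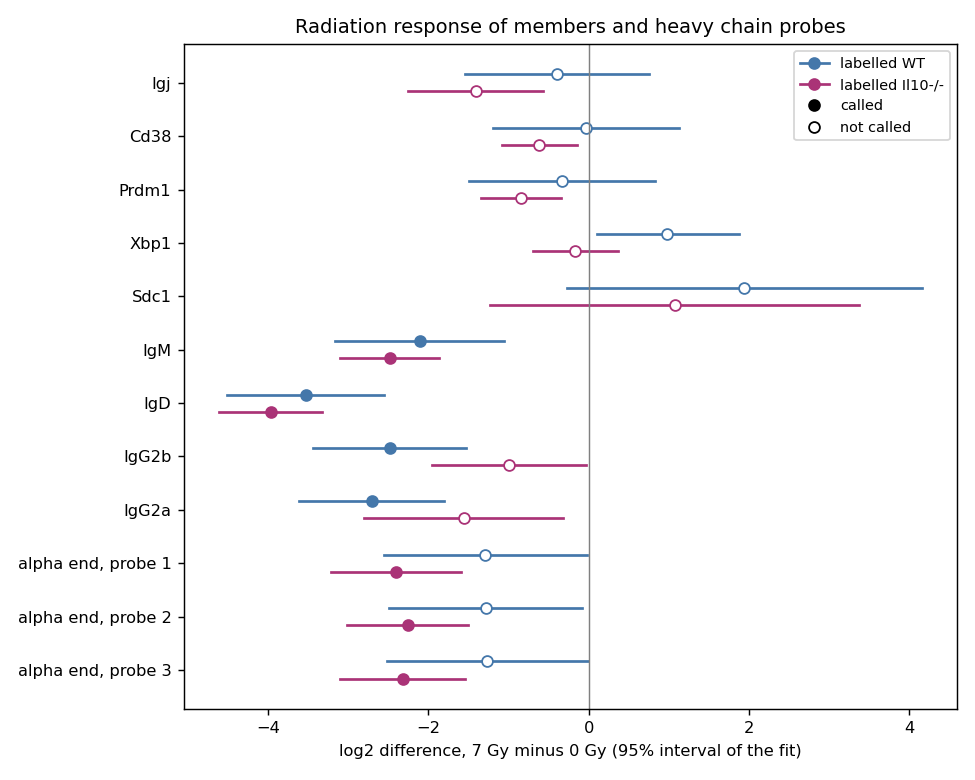
Fitted log2 difference, 7 Gy minus 0 Gy (x axis), for 5 member genes and 7 heavy chain probes (y axis), with the 95% interval of limma's fit as a line. Filled points were called and open points were not. IgM and IgD are filled for both genotypes, and no member gene is.

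Heavy chain variable segments and the light chains moved with the constant region. Of 25 tested variable segment probes 13 were called lower in the WT response and 16 in the Il10-/- response, with median differences of -2.31 and -1.92. Of 50 tested kappa probes 31 and 38 were called lower (medians -2.15 and -2.83), and of 6 lambda probes 4 and 6 (medians -2.68 and -3.38). Of all tested probes 2.32% and 5.87% were called lower. None of the variable segment and light chain probes was called higher. Many of these probes have near-identical neighbours in the same locus, so they may read each other's transcripts. Among probes named by an immunoglobulin chain symbol, the lambda segment Iglv1 fell by 3.08 (adjusted p = 2.71e-05, limma) in mice labelled Il10-/-. In mice labelled WT Iglv1 differed by -1.94 and was not called (adjusted p = 0.0172, limma). The variable segment Ighv1-33 was called in both, at -2.68 (adjusted p = 0.00123, limma) for the WT label and -3.01 (adjusted p = 0.000104) for the Il10-/- label, with 3 and 1 of 5 irradiated arrays well above background. With replicates 1 and 2 averaged 14 kappa probes were called lower in the WT response, and without replicate 2 at 0 Gy 19.

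B cell genes differed between doses by a similar amount, which is given here because IgM and IgD also mark B cells. The mean log2 signal of 14 of the 15 listed B cell genes had a range of 3.81 to 4.93 at 0 Gy and 1.47 to 2.25 at 7 Gy for the WT label. For the Il10-/- label the ranges were 3.68 to 4.56 at 0 Gy and 1.47 to 1.90 at 7 Gy. Of 17 tested probes 15 and 14 were called lower, with medians of -2.88 and -3.05, where 2.32% and 5.87% of all tested probes were called lower. Fcer2a, the low-affinity IgE receptor CD23, was called in both. Its signal was well above background on 5 of 5 unirradiated arrays of each label, on 1 of 5 irradiated WT arrays and on 0 of 5 irradiated Il10-/- arrays. The fitted WT difference was -5.09 (adjusted p = 1.91e-05, limma). In the Il10-/- response Fcer2a was called (adjusted p = 4.9e-06, limma) and was 11.6-fold lower by an approximate bound. Such a bound sets the mean of the detected group against a floor on each array, or against the reading where that was higher. The floor is the lowest signal of any probe well above background there. Other probes may need more signal to be detected, so the bound is not a strict minimum. The early B cell factor Ebf1 and the repressor Bach2, which holds back Prdm1, had the same pattern of detection, with WT differences of -3.85 and -3.32. In the Il10-/- response they were 5.79-fold and 4.9-fold lower by the approximate bound, and all of these were calls. The transcription factor Spib was called in both, at -3.19 for the WT label and -3.93 for the Il10-/- label, where 3 of 5 irradiated arrays were well above background. Cd79a, a signalling chain of the B cell receptor, was well above background on all 20 arrays and was called at -2.88 and -3.83. The part of B cells in the heavy chain differences was not tested.

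Of the other genes of the plasma cell list, 14 were tested, with 15 probes. In mice labelled WT 3 probes were called lower and 0 higher (median -0.94), and in mice labelled Il10-/- 5 lower and 0 higher (median -0.67). Over all tested probes 2.32% and 5.87% were called lower, with medians of -0.02 and -0.10. Pou2af1, a coactivator of immunoglobulin transcription, fell by 2.88 (adjusted p = 0.000617, limma) in mice labelled WT and by 4.05 (adjusted p = 1.85e-05) in mice labelled Il10-/-. Cxcr4, the receptor that directs plasma cells to bone marrow and is made by most blood cells, was called in both, at -1.53 (adjusted p = 0.0141, limma) for the WT label and -1.89 (adjusted p = 0.00308) for the Il10-/- label. Fam46c, now Tent5c, fell by 2.18 (adjusted p = 0.00738) in mice labelled WT. In mice labelled Il10-/- Fam46c differed by -1.35 and was not called (adjusted p = 0.0138, limma). Mzb1, a chaperone for IgM assembly, fell by 1.90 (adjusted p = 0.000712) in mice labelled Il10-/- and differed by -0.94 (adjusted p = 0.201) in mice labelled WT. Irf4, which drives the plasma cell fate, was not called in either, at -0.94 and -0.65. Without replicate 5 at 0 Gy the WT count was 5 called lower, and with replicates 1 and 2 averaged it was 1.

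Genes of the secretory pathway, which plasma cells use heavily and all cells carry, had few calls, all of them higher. Of 33 tested probes of 25 genes, 3 were called higher and 0 lower in each genotype, where 4.48% and 3.29% of all tested probes were called higher. The medians were 1.41 and 0.37, beside -0.02 and -0.10 over all tested probes. The WT count was 1 with normexp background correction, 9 with scaling to a reference array, 10 in the authors' table and 13 with all 4 groups in 1 fit, and the Il10-/- count was 0 with normexp or with all 4 groups in 1 fit. In mice labelled WT the disulphide isomerase Pdia6 rose by 2.56 (adjusted p = 0.00475, limma), the chaperone partner Sdf2l1 by 2.42 (adjusted p = 0.00431) and Dnajb9 by 1.58 (adjusted p = 0.0111). The same probes differed by 0.87 (adjusted p = 0.21, limma), 0.86 (adjusted p = 0.0344) and 0.96 (adjusted p = 0.0259) in mice labelled Il10-/-, none of them a call. In mice labelled Il10-/- both called probes of Derl1, a channel protein for the removal of misfolded proteins, rose by 1.16 and 1.47, and another probe of Dnajb9, well above background on 2 of 5 arrays at each dose, by 1.33 (adjusted p = 0.00386). In mice labelled WT these Derl1 probes differed by 1.60 (adjusted p = 0.0609, limma) and 2.32 (adjusted p = 0.0525), not called. That Dnajb9 probe differed by 1.48 there (adjusted p = 0.039), also not called, and was well above background on 1 of 5 unirradiated arrays. The mean log2 signal of the list was lowest on an unirradiated WT array, at 2.58, and without replicates 4 and 5 at 0 Gy the WT median was 0.75, with 5 probes called higher. The part of weak arrays and of other cell types in this difference was not tested.

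Ligands and receptors of plasma cell survival and homing made up the last list, which shares Cxcr4 and Tnfrsf13b with the plasma cell list. Of its 9 tested probes of 7 genes, 3 were called lower and 0 higher in each genotype, with medians of -0.94 and -0.48. Over all tested probes 2.32% and 5.87% were called lower, with medians of -0.02 and -0.10. For Tnfrsf13c, the BAFF receptor of B cells, 1 probe was called in both, at -4.61 (adjusted p = 2.18e-05, limma) for the WT label. There 3 of 5 irradiated arrays were well above background. In the Il10-/- response 0 of 5 irradiated arrays were, and this probe was called (adjusted p = 3.16e-06, limma) and 20.6-fold lower by the approximate bound. Another probe of Tnfrsf13c was called only for the WT label, at -1.82 (adjusted p = 0.00881, limma). In the Il10-/- response that probe was 1.11-fold lower by the approximate bound and not called (adjusted p = 0.0223, limma). Tnfrsf13b (TACI) had 1 probe called lower in mice labelled Il10-/-, by 0.98 (adjusted p = 0.00678). In mice labelled WT that probe differed by -0.94 and was not called (adjusted p = 0.131, limma).

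**Figure D5:**
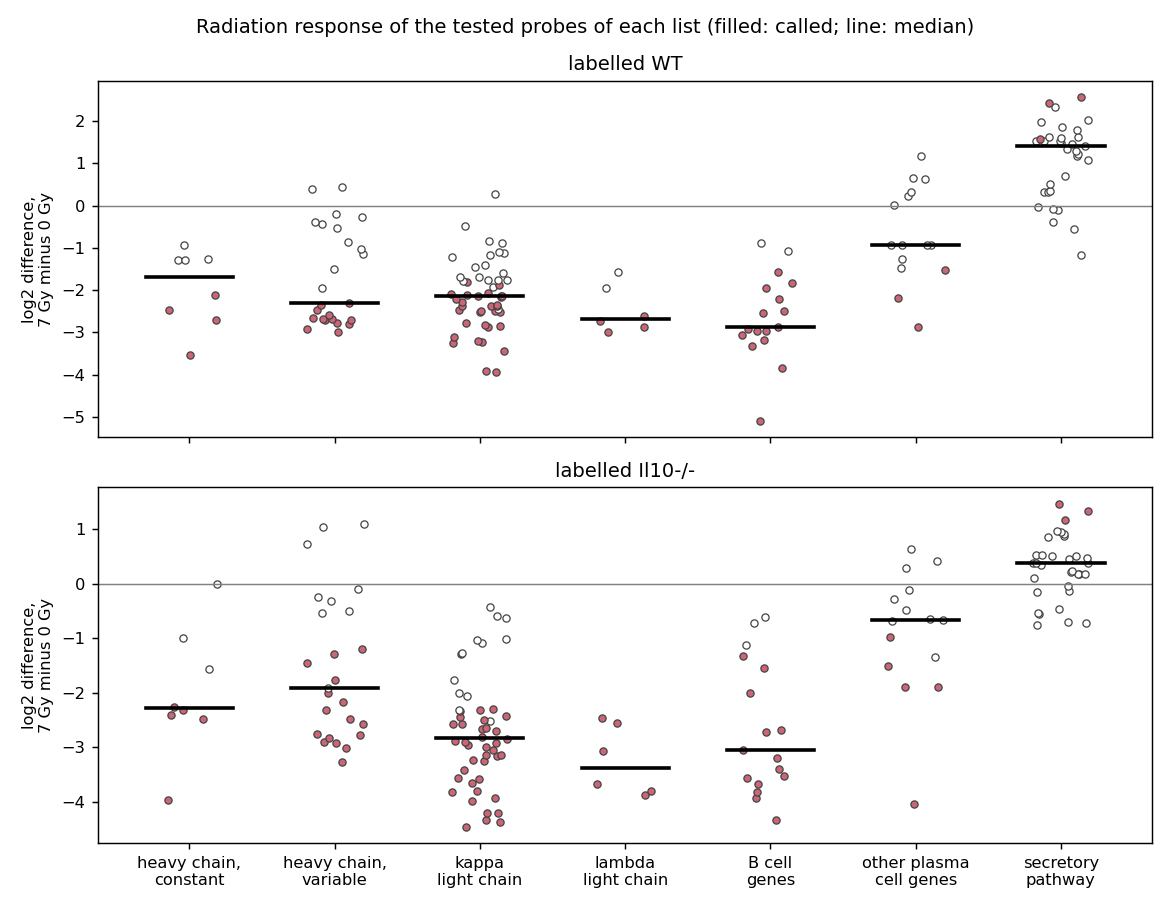
Fitted log2 difference, 7 Gy minus 0 Gy (y axis), of each tested probe of 7 lists (x axis) in mice labelled WT (top) and Il10-/- (bottom). Filled points were called, open points were not, horizontal bars are medians and the sideways spread has no meaning. Immunoglobulin and B cell probes lie mostly below 0, and secretory pathway medians lie above 0, at 1.41 and 0.37.

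Between genotypes no member and no heavy chain probe was called. At 0 Gy 0.845% of tested probes were called, all higher in mice labelled Il10-/-, and at 7 Gy 0.00538%, or 1 probe. In the fit over all probes these shares were 0.167% and 0.00507%. At 0 Gy 1 of the 3 tested members had an unadjusted p below 0.05 (16.1% of all tested probes did), and at 7 Gy 1 of 3 (11.1%). At 0 Gy 0 of the 3 tested members separated the genotypes without overlap, where 4.54% of all tested probes did. At 7 Gy Igj was lower in mice labelled Il10-/- on 5 of 5 slides, by 0.45 to 2.40, and the groups did not overlap, as for 2.96% of all tested probes. Its difference was -1.28 ± 0.38 (SE; 95% interval -2.12 to -0.45; adjusted p = 0.359, limma). Alpha end probe 3 showed the same separation, at -1.54 ± 0.42 (SE; adjusted p = 0.339), and was also lower on 5 of 5 slides. At 0 Gy Prdm1 differed by 1.11 ± 0.48 (SE; adjusted p = 0.285) and Xbp1 by 0.96 ± 0.39 (SE; adjusted p = 0.291), and in both the low readings were those of replicates 4 and 5 labelled WT.

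Whether the response to 7 Gy differed between the genotypes was tested as an interaction over all 20 arrays. No probe on the array was called in it (0%), and 0 of the 3 tested members and 1 of the 8 tested heavy chain probes had an unadjusted p below 0.05, where 7% of all tested probes did. For Igj the difference between the responses was -1.02, with a 95% interval from -2.46 to 0.43 (adjusted p = 0.722, limma). Xbp1, which did not pass the filters, gave -1.15 in the fit over all probes. Its interval ran from -2.13 to -0.18, and it was not called (adjusted p = 0.217, limma). Over 30 alternative settings this value ran from -1.96 to -0.61, never called. The WT response of Xbp1 in it was 0.98, and 0.44 without the low replicates 4 and 5 at 0 Gy. IgG2b gave the lowest p of the heavy chain probes, at 1.49 with an interval from 0.17 to 2.81 (adjusted p = 0.688). For alpha end probe 3 it was -1.05, from -2.58 to 0.48, and for IgM -0.37, from -1.58 to 0.85. These intervals are wide, and the calls that appear in 1 genotype alone are not shown to differ between genotypes.

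The likeness of Igj to other genes was taken over the 20 arrays, first with the group differences left in. By that measure the genes whose tested probe followed Igj most closely were Igh-VJ558 (alpha end probe 1, r = 0.888), the transcript of alpha end probe 3 (r = 0.883), Hnrnpa3 (r = 0.845), Mzb1 (r = 0.835) and Mrgpre (r = 0.831). After the group means were subtracted the values were 0.84, 0.82, 0.86, 0.81 and 0.81, so that of these 5 Hnrnpa3 was then the highest. With IgM Igj correlated at 0.70, and with IgD at 0.62. The IgM probe was closest to B cell and light chain transcripts: 3 kappa chain probes (r = 0.984, 0.977 and 0.976), H2-DMb2 of antigen presentation (r = 0.978) and Cxcr5, a homing receptor of B cells (r = 0.974), with 0.88 to 0.93 after the group means were subtracted. These correlations are descriptions over arrays that share slides, groups and detection rates, and the probes were the highest of all tested ones.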

How the data were processed

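RNA of whole blood was hybridised by the authors to single-colour arrays of 60-base probes. The deposited intensity values are the scanner's background-subtracted processed signals, made per the labels with Agilent Feature Extraction 10.7, while the file headers give 12.0.2.2; coordinates are mm9. The deposited series table holds the authors' log2 values after median normalization and filtering, and served as an alternative. Here log2 signals were averaged over a probe's spots without non-uniform outliers and centred on each array's median. Probes flagged on at least 25% of arrays, as outliers or as no brighter than background, or with fewer than 20% of arrays 1.5-fold off the probe's median, were removed, which left 22997 and then 18587 of 39429. Groups were compared with limma 3.58.1 in R 4.3.3, with p-values adjusted by Benjamini-Hochberg over all tested probes. The scripts were tested on simulated data. The number of arrays limits the precision. The labels give only replicate numbers, and replicates were counted as separate mice. Members and lists were chosen with earlier results of these data known. All members are named, with all their probes. From the other lists, called probes with the 3 largest rises and falls in each radiation response are named. Irf4 was added after its values were seen. So were values of named probes in the genotype without a call, among them Mzb1 in mice labelled WT. Lists of T cells, NK cells, neutrophils, monocytes, erythroid cells, platelets and heart muscle were also fixed, and their ranges are given at the end. Alternatives were other scalings, background correction, filters, thresholds, the slide as a block and leaving out arrays.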

Additional observations from a re-analysis of the deposited data

Results flagged for a closer look

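In 10 of the 68 sets of 5 arrays (17 probes in 4 groups), 1 array stood apart from the rest of its group by more than Dixon's limit of 0.71 of the range. Chance flags about 1 in 20 such sets. In the 0 Gy group labelled WT, replicate 5, the array with the fewest detected probes, was low for Cd38 (1.66, not well above background, next array 4.28), IgD (5.16, next 6.50), alpha end probe 2 (4.91, next 7.15) and alpha end probe 3 (5.45, next 7.94), and replicate 4 was low for Sdc1 (-1.35, not well above background, next -0.41). In the 0 Gy group labelled Il10-/-, replicate 3 was low for Xbp1 (6.94, next 7.43), Prdm1 (0.79, next 1.19) and alpha end probe 1 (1.31, next 2.49). Igj was low on replicate 5 of the 7 Gy group labelled Il10-/- (0.32, next 1.96), where it was not well above background. The gamma 2 position probe was high on replicate 4 of the 7 Gy group labelled WT (-0.05, next -1.10), also not well above background.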

How the results depend on the processing

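The count of member probes called stayed at 0 under every alternative run except a Benjamini-Hochberg rate under 5% alone, which called 2 in the Il10-/- response, Igj (-1.41) and Prdm1 (-0.85). The count of heavy chain probes called was 0 in both responses with normexp background correction, which raised the lower quartile of 6 arrays to 7.15 to 9.63 on the log2 scale, against 5.93 to 6.23 on the other 14; IgD was then -1.79 and -2.63 and IgM -1.06 and -1.87. Leaving out 1 array gave 3 to 4 heavy chain calls in the WT response and 5 to 5 in the Il10-/- response, and 0 to 0 member calls in each comparison. Averaging replicates 1 and 2, chosen after seeing the data, gave IgM in mice labelled WT as -1.82 (adjusted p = 0.0637, limma), not called.
Differences near 0 changed sign. In the WT response Cd38 was 0.56 with normexp and 0.20 with replicates 1 and 2 averaged, and -0.62 to 0.17 with 1 array left out. In the Il10-/- response Tnfrsf17 was -0.02 with normexp and -0.25 with quantile normalization, and at 7 Gy its genotype difference was -0.12 with quantile normalization. At 0 Gy the genotype difference of Cd38 was -0.04 with the 75th percentile, -0.05 with quantile normalization, -0.21 without replicates 4 and 5 labelled WT and -0.28 to 0.51 with 1 array left out. That of IgM at 0 Gy was -0.33 with the 75th percentile, -0.27 in the authors' table and with the reference array, -0.49 with quantile normalization, -0.75 without replicates 4 and 5 and -0.31 to 0.24 with 1 array left out. With normexp IgD was 0.28 and IgG2a 0.01 at 0 Gy, and the gamma 2 position -0.02 at 7 Gy. The difference between the responses was 0.09 with quantile normalization and 0.40 without replicates 4 and 5 for IgM, and 0.25 without them for Prdm1. The genotype difference of Sdc1 ran from -0.39 to 0.98 at 0 Gy and from -1.24 to 0.32 at 7 Gy with 1 array left out. The causes were not tested.
Same-numbered arrays share a slide, and the correlation of their deviations from the group means differed between comparisons. It was 0.06 to 0.32 between doses for the WT label and -0.37 to 0.41 for the Il10-/- label. Between genotypes it was -0.34 to 0.20 at 0 Gy and -0.02 to 0.68 at 7 Gy. The main fits did not take the numbers as pairs, and the slide as a block was an alternative. With the slide as a replicate block 0 members were called in each comparison, and IgM fell by 2.11 (adjusted p = 0.00507, limma) in mice labelled WT and by 2.48 (adjusted p = 0.00137) in mice labelled Il10-/-. Called probes on the whole array numbered 1626 and 1290 with the block against 1263 and 1702 without it, and 815 in the Il10-/- response with replicates 1 and 2 averaged.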

Other observations

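Other marker lists fixed for cells that the blood could hold are given as ranges of the mean log2 signal over the 5 arrays of a group, at 0 Gy and then 7 Gy. T cell genes (12 used) lay at 3.51 to 5.52 and 3.22 to 4.54 in mice labelled WT and at 5.08 to 5.41 and 4.15 to 4.91 in mice labelled Il10-/-. NK cell genes (9 used) lay at 2.59 to 3.81 and 3.42 to 4.44, and at 3.33 to 4.29 and 3.45 to 4.71. Neutrophil genes (7 used) lay at 6.32 to 7.94 and 6.93 to 7.41, and at 8.47 to 9.82 and 7.72 to 9.82. Monocyte genes (7 used) lay at 2.52 to 4.32 and 2.95 to 3.77, and at 3.83 to 4.66 and 3.17 to 3.66. Erythroid genes (7 used) lay at 6.87 to 8.77 and 4.66 to 6.16, and at 6.65 to 8.32 and 4.74 to 6.16. Platelet genes (8 used) lay at 5.61 to 6.59 and 6.91 to 8.01, and at 5.57 to 8.55 and 8.04 to 9.11. Heart muscle genes (6 used) lay at 0.45 to 3.33 and 1.15 to 8.43, and at 0.43 to 4.10 and 2.50 to 8.20.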
